A study of Mus musculus with 17 samples.

Results

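Integrin and laminin transcripts of the neonatal mouse heart are described here. Genes were taken by symbol: integrin alpha and beta chains (Itga or Itgb and a digit, with Itgav, Itgam, Itgal, Itgax and Itgae) and laminin alpha, beta and gamma chains (Lama, Lamb or Lamc and a digit). This gave 38 genes of the 16738 genes with a messenger RNA row, each read from 1 RefSeq entry, the one with the highest mean where a gene had several (Itgam, Itgb4 and Itgb5). They comprised 15 integrin alpha chains, 9 integrin beta chains, 5 laminin alpha chains, 3 laminin beta chains, 3 laminin gamma chains and 3 proteins that bind integrin tails and carry such a symbol without being integrin chains (Itgb1bp1, Itgb1bp2 and Itgb3bp). Itga10 and Itgal also match by symbol and were not analysed here.

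Integrins are cell surface receptors made of 1 alpha and 1 beta chain that link the matrix to the cytoskeleton. Laminins are secreted heterotrimers of 1 alpha, 1 beta and 1 gamma chain, and they build the sheet of basement membrane around every cardiomyocyte and capillary. In striated muscle the laminin trimer with the Lama2 chain is bound from the cell side by the integrin with the Itga7 and Itgb1 chains and, in parallel, by dystroglycan.

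RNA came from the right ventricle (RV) and left ventricle (LV) of male C57Bl/6 mice at postnatal day 0 (P0, before the ductus closes), day 3 (P3, described as the transition) and day 7 (P7, when most cardiomyocytes differentiate terminally). The labels give this 1 strain name for every library, with no substrain, and name no treatment and no pooling. The 17 strand-specific paired-end libraries of total RNA formed 6 groups of 3 replicates, except RV P7 with 2. The labels call them biological replicates.

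The deposited levels are taken as RPKM (reads per kilobase of transcript and sequenced reads of the library), a unit inferred from the values, and the libraries held 27561845 to 41061058 reads (median 36153964). Of the 38 genes, 24 reached 1 RPKM in at least 2 libraries and were tested among 10668 such entries; they had 50 to 38748 reads per library, and the other 14 had 0 to 393. Libraries differed by more than chamber and age. The entry NM_008710, which the reference tables do not name, stood at 0.128 to 0.205 RPKM in 7 libraries (replicates 2 and 3 of LV P3, LV P7 and RV P3, and replicate 2 of RV P7) and at 2.99 to 15.6 RPKM in the other 10; every P0 library was among those 10. No label describes this split. Values without those 7 libraries are therefore given for each member whose stated call they end, from 1 library per P3 and P7 group, so that the lone library is assumed to vary like the P0 groups. All 10 cardiomyocyte markers passed the filter, with a summed level of 27864 to 41657 RPKM. In whole ventricle, fewer cells of a type and less RNA per cell cannot be told apart. RPKM means are given ± SD (n = 3, or n = 2 for RV P7) and log2 changes ± SE. All gene positions are GRCm38.p6 coordinates. P-values are two-sided from limma on log2(RPKM + 1), adjusted by the Benjamini-Hochberg method over all 10668 entries, with a call at an adjusted p under 0.05. Log2 changes are on that scale, and the added 1 understates the change of low genes.

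Starts of 25 of the 38 genes were found in the RefSeq promoter table (GRCm38.p6). Windows of the 250 bases before a start, 5′ to 3′ on the gene's strand, are printed for 4 members. Lama2 and Lamb2 are laminin genes called higher at P7 in at least 1 chamber, and Lamb3 and Itga3 were called lower in both. These directions are those of the deposited values, and the letters before starts of the genes can be compared. Lamb2 was called as deposited in the RV alone. The RV calls of Lamb3 and Itga3 did not stand in every fit, as given below. For Lamb3 and Itga3, which have several starts there, the most upstream one is shown. The Lamb3 window lies inside the gene, downstream of the gene start at 193294353, so it does not show the bases before the whole gene. The other windows also reach into their genes. On its strand the whole Lama2 gene starts at 27617191, so nearly all of its window lies inside the gene. For Itga3 the whole gene starts at 95076844, within the window, and for Lamb2 at 108479847, near the end of the window. Capitals mark an E-box (CANNTG) or a GC box (GGGCGG), searched on both strands; the marked motifs do not overlap here.
Lama2, chr10:27616943-27617192, - strand: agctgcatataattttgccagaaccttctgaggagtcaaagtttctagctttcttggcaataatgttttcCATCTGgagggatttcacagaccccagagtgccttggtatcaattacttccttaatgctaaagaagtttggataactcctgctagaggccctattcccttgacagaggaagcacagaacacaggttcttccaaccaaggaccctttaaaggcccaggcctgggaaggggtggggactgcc
Lamb2, chr9:108479612-108479861, + strand: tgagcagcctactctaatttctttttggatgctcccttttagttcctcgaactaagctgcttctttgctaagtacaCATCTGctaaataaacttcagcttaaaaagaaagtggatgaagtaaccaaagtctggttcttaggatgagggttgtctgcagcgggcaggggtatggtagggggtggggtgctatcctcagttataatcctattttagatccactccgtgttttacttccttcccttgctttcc
Lamb3, chr1:193301744-193301993, + strand: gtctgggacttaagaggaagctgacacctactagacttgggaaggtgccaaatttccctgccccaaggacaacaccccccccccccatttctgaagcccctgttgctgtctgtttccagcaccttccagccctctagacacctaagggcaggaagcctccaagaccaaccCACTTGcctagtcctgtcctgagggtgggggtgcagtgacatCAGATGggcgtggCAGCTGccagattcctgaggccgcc
Itga3, chr11:95076715-95076964, - strand: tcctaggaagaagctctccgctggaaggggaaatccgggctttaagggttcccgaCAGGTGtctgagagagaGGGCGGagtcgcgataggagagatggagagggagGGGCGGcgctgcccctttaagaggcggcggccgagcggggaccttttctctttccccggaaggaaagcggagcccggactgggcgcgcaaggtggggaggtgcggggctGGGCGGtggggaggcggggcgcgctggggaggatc
An E-box stood in all 4 windows, once in Lama2, Lamb2 and Itga3 and 3 times in Lamb3. The GC box stood in the Itga3 window, 3 times. Over all 32851 windows of that length in the table, 66.2% held an E-box and 32.7% a GC box, and among the 25 genes 20 had an E-box and 8 a GC box before at least 1 start. These matches describe letters and carry no statement on binding.

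A few chains made up most of the measured transcripts. RPKM is scaled by transcript length, so levels of different genes can be set side by side. The highest mean level over all libraries was that of Itgb1, the beta chain shared by most integrins of the heart, at 202 RPKM. It was followed by the laminin gamma chain Lamc1 at 95.01, the muscle protein melusin (Itgb1bp2), which binds the Itgb1 tail, at 88.4, Lamb1 at 72.5 and Lama4 at 62.4 RPKM. Itgb1 alone held 94.0% to 96.3% of the summed integrin beta level in each library. Its level was 1.61 to 2.39 times the sum of all alpha chains. Among the alpha chains, Itga5, the fibronectin receptor chain, was highest at 40.4 RPKM, ahead of the collagen receptor chain Itga1 at 16.9, the laminin receptor chains Itga6 at 14.0 and Itga7 at 13.7 RPKM. Means over all libraries hide the order by age, because Itga7 stood below Itga1 and Itga6 at P0 and above both at P7 in both chambers, in group means.

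Between P0 and P7 most called members of the RV and of the LV fell, while Itga7, Lama2 and Itgb2 rose in both chambers. Of these, Itgb2 passed the filter only through P3 and P7 libraries. In the RV, 14 of the 24 tested genes were called for P7 against P0, 4 higher and 10 lower. Of all tested entries 55.9% were called there, 9.81% higher and 46.1% lower. In the LV, 12 were called, 3 higher and 9 lower, beside 64.9% of all tested entries, 11.8% higher and 53% lower. The RV count is near its background and the LV count below its background. The median change of the tested members was -0.25 in the RV and -0.13 in the LV, beside -0.29 and -0.31 over all tested entries. Because the whole table shifted downward as deposited, each library was also scaled to a common upper quartile, which moved the median of all entries to -0.02 in both chambers. With that scaling 8 members were higher and 2 lower in the RV, and 9 were higher and 4 lower in the LV. Backgrounds then were 19.8% higher and 20.6% lower in the RV, and 24.4% higher and 25.3% lower in the LV. Calls that stood in the same direction under both scalings included Itga7, Lama2, Itgb2 and Lamb2 higher and Itga5 lower in the RV. In the LV they included Itga7, Lama2 and Itgb2 higher and Itga2, Itga3 and Lamb3 lower. Under both scalings 30.4% of all tested entries were called in the RV and 37.1% in the LV. Without RV P7 replicate 1, 7 RV members were called, and Itga1, Itga2, Itga6, Itgav, Lama4, Lamb2 and Lamb3 lost their call; 36.3% of all entries were then called. Without the 7 libraries low in NM_008710 the counts were 9 in the RV, beside 40.1% of all entries, and 7 in the LV, beside 36.5%.

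**Figure D1:**
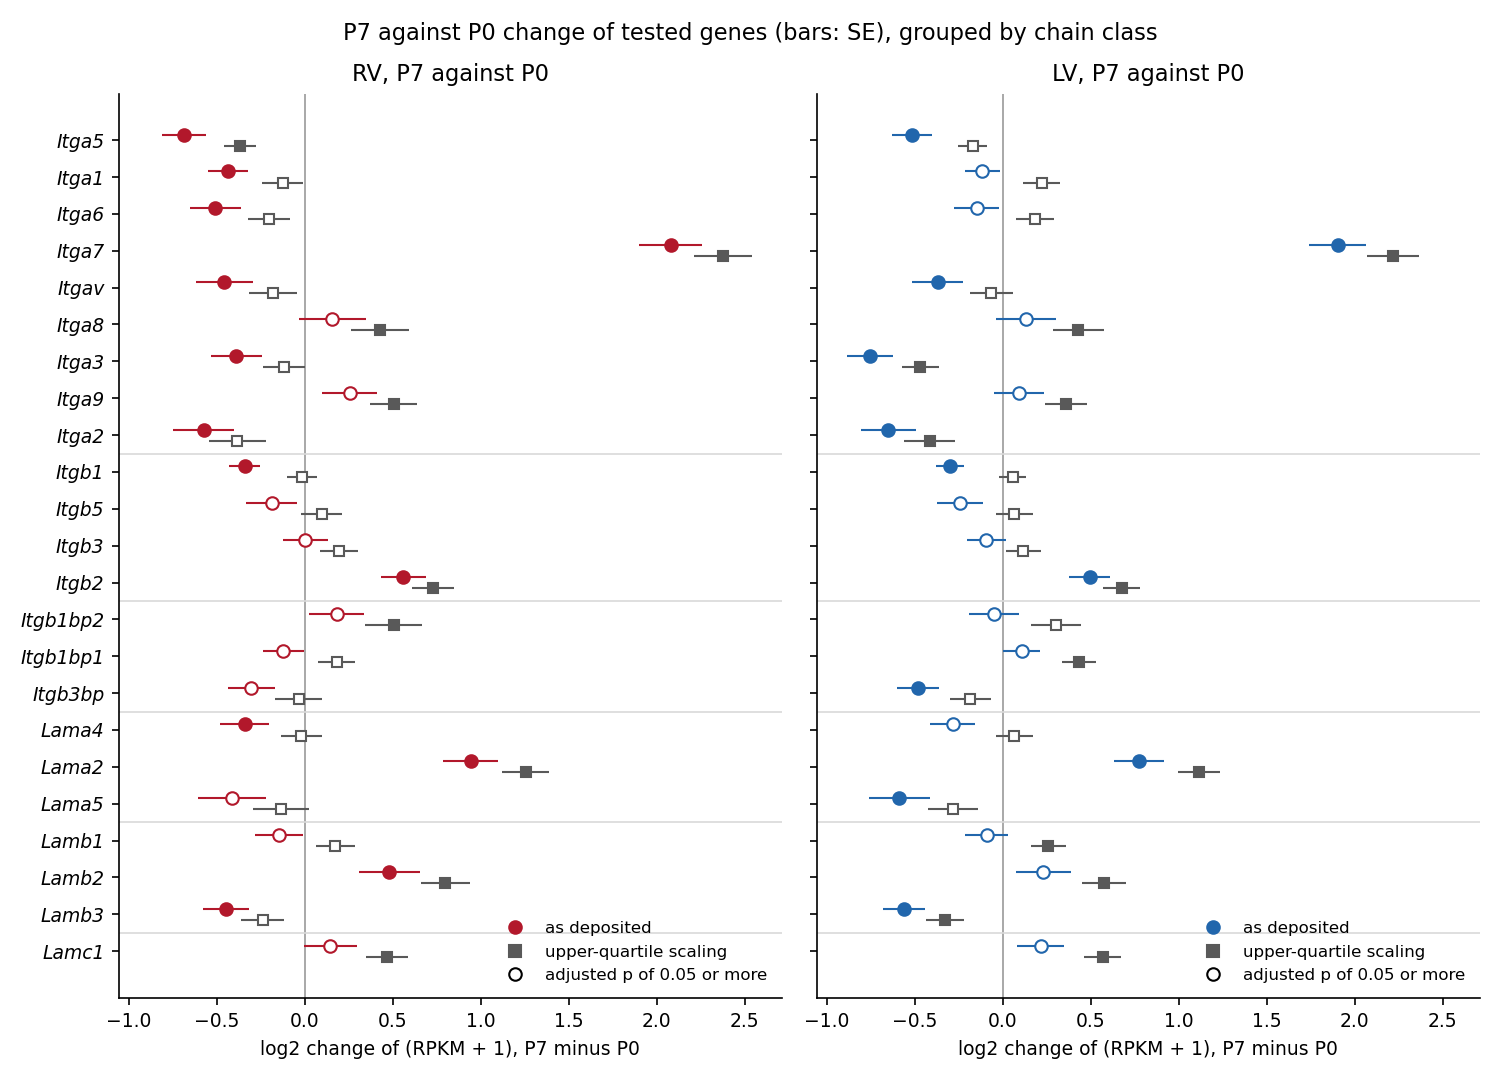
The log2 change of P7 over P0 (x axis, log2 of RPKM + 1) is drawn for tested genes by chain class in the RV and the LV, as deposited (coloured circles) and after upper-quartile scaling (grey squares), with SE bars and filled symbols at an adjusted p under 0.05. Itga7 lies farthest right in both chambers, with 2.08 in the RV and 1.90 in the LV, Lama2 is next, and of the genes drawn Itga5 lies farthest left in the RV and Itga3 in the LV; among genes called as deposited the scaled value crosses 0 for Itgb1 in the LV, and it also does for several genes not called as deposited, such as Lamb1 in both chambers.

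Itga7, the laminin receptor chain of striated muscle, had the largest change of all tested members. Itga7 lies on chromosome 10 from 128933421 to 128958286 and was read from NM_008398. It stood at 4.10, 5.70 and 5.28 RPKM in the RV at P0, at 17.9, 13.8 and 15.5 RPKM at P3 and at 26.6 and 22.2 RPKM at P7. It stood at 5.05, 5.41 and 4.01 RPKM in the LV at P0, at 18.3, 11.0 and 14.8 RPKM at P3 and at 23.9, 17.4 and 21.1 RPKM at P7. No P3 or P7 library of either chamber overlapped the P0 libraries, and the P7 libraries of the RV lay above all P3 libraries of that chamber. Its mean was 4.85-fold higher at P7 than at P0 in the RV (log2 = 2.08 ± 0.18, adjusted p = 3.26e-08) and 4.32-fold higher in the LV (log2 = 1.90 ± 0.16, adjusted p = 1.31e-08). In the libraries that were not low in NM_008710 the log2 change was 2.20 in the RV and 2.10 in the LV. In each P3 and P7 group, the replicate 1 library, the one not low in that entry, had the highest Itga7 value. Of 10 cardiomyocyte markers, 3 were called higher and 4 lower at P7 in each chamber; after upper-quartile scaling 4 were higher and 1 lower in the RV, and 5 higher and 1 lower in the LV. Their summed level as deposited was 32583 to 41657, 29927 to 32215 and 28436 to 31916 RPKM at P0, P3 and P7 in the RV and 33687 to 38632, 30158 to 37389 and 27864 to 29713 RPKM in the LV; their part in the Itga7 change was not tested.

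**Figure D2:**
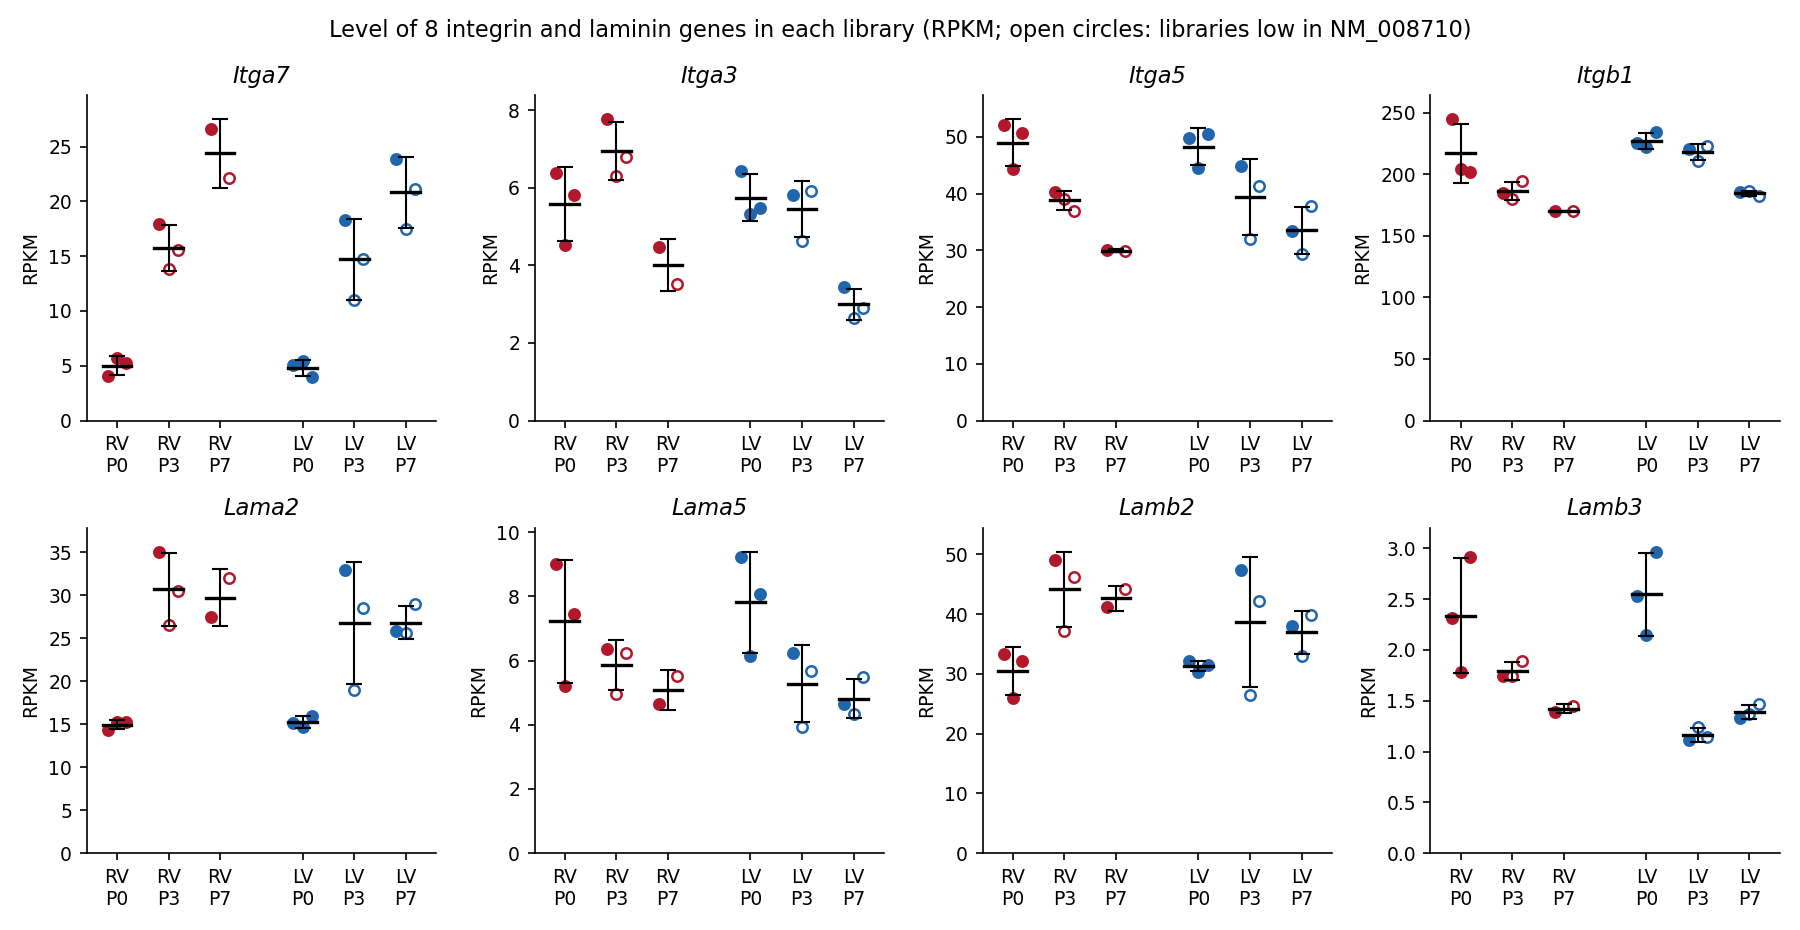
RPKM (y axes, from 0) of 8 genes in each library, by chamber and age, with lines at the group mean and SD bars; open circles are the 7 libraries low in NM_008710. Itga7 and Lama2 are higher in every P7 library than in any P0 library, Itga5 and Lamb3 lower, and the LV P3 replicate 2 library is the lowest of its group in 7 of the 8 panels, all but Lamb3.

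Itga5, the alpha chain of the main fibronectin receptor, fell. Itga5 lies on chromosome 15 from 103344286 to 103366791 and was read from NM_010577. It stood at 52.0, 44.3 and 50.6 RPKM in the RV at P0, at 40.3, 39.1 and 37.0 RPKM at P3 and at 30.1 and 29.8 RPKM at P7. In the LV the values were 49.8, 44.5 and 50.5 RPKM at P0, 44.9, 32.0 and 41.3 RPKM at P3 and 33.4, 29.4 and 37.7 RPKM at P7. All P7 libraries lay below all P0 libraries of their chamber. The change was called in the RV (log2 = -0.69 ± 0.13, adjusted p = 0.00018) and in the LV (log2 = -0.52 ± 0.11, adjusted p = 0.000585). After upper-quartile scaling it remained called in the RV (-0.37, adjusted p = 0.00416) and not in the LV (-0.17, adjusted p = 0.0969).

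Itga3, a receptor chain for laminins with the Lama3 or Lama5 chain, was lower at P7 than at both earlier ages. Itga3 lies on chromosome 11 from 95044475 to 95076844 and was read from NM_013565. It stood at 6.38, 4.52 and 5.82 RPKM in the RV at P0, at 7.76, 6.30 and 6.79 RPKM at P3 and at 4.48 and 3.53 RPKM at P7. It stood at 6.43, 5.31 and 5.48 RPKM in the LV at P0, at 5.82, 4.63 and 5.92 RPKM at P3 and at 3.43, 2.65 and 2.90 RPKM at P7. The P7 libraries lay below every P0 and P3 library of their chamber. The change of P7 against P3 was called in both chambers (log2 = -0.67 ± 0.15, adjusted p = 0.00574 in the RV and log2 = -0.69 ± 0.13, adjusted p = 0.000833 in the LV) and also after upper-quartile scaling (adjusted p = 0.00912 in the RV and 0.00112 in the LV). Both of these calls ended without the 7 libraries low in NM_008710 (-0.68, adjusted p = 0.169 in the RV and -0.62, adjusted p = 0.143 in the LV), and the RV call also without RV P7 replicate 2. For P7 against P0 the log2 change was -0.39 in the RV (adjusted p = 0.0302) and -0.75 in the LV (adjusted p = 6.7e-05). The RV call for P7 against P0 ended with upper-quartile scaling (-0.12, adjusted p = 0.443), without the 7 libraries (-0.25, adjusted p = 0.315), with the low level of that entry as a term, with no filter on low values and without RV P0 replicate 1 or 3 or RV P7 replicate 2.

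Itga2, a collagen receptor chain near the limit of the filter, fell. Itga2 lies on chromosome 13 from 114833081 to 114932100 and was read from NM_008396. It stood at 2.99, 1.51 and 1.87 RPKM in the RV at P0, at 1.34, 0.917 and 0.986 RPKM at P3 and at 0.940 and 1.18 RPKM at P7. In the LV Itga2 had 3.54, 2.33 and 2.27 RPKM at P0, 1.62, 1.53 and 1.61 RPKM at P3 and 1.05, 1.55 and 1.45 RPKM at P7. Its P7 libraries lay below its P0 libraries in each chamber (log2 = -0.58 ± 0.18, adjusted p = 0.00975 in the RV and log2 = -0.65 ± 0.16, adjusted p = 0.00142 in the LV). The RV call ended with upper-quartile scaling (-0.38, adjusted p = 0.0674) and without the 7 libraries (-0.66, adjusted p = 0.0743), and also without RV P0 replicate 1 or RV P7 replicate 1.

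Itga1, the other collagen receptor chain and the next gene on chromosome 13, had its lowest group mean at P3 in both chambers. Itga1 lies on chromosome 13 from 114958079 to 115101964 and was read from NM_001033228. It stood at 20.6, 22.3 and 21.9 RPKM in the RV at P0, at 12.9, 11.6 and 13.0 RPKM at P3 and at 14.0 and 17.5 RPKM at P7. In the LV Itga1 had 17.5, 19.2 and 20.2 RPKM at P0, 14.5, 13.5 and 15.01 RPKM at P3 and 15.3, 18.2 and 19.1 RPKM at P7. Every P3 library lay below every P0 library of its chamber, and P3 against P0 was called in the RV (log2 = -0.74 ± 0.10, adjusted p = 1.77e-05) and in the LV (log2 = -0.38 ± 0.10, adjusted p = 0.00864). Upper-quartile scaling ended the LV call (adjusted p = 0.132), as did leaving out the 7 libraries low in NM_008710 (-0.37, adjusted p = 0.159). In the RV the P7 libraries lay above the P3 libraries, and P7 against P3 was called after upper-quartile scaling but not as deposited. P7 against P3 passed the threshold narrowly in the LV (log2 = 0.26 ± 0.10, adjusted p = 0.0494). This call ended without the 7 libraries (0.07, adjusted p = 0.823), with no filter on low values, and on leaving out any 1 library of LV P0, LV P3 or RV P3, replicate 2 or 3 of LV P7, or replicate 2 or 3 of RV P0. For P7 against P0 the gene was called lower in the RV (log2 = -0.44 ± 0.11, adjusted p = 0.0032). That call did not stand after upper-quartile scaling (-0.13, adjusted p = 0.409) or without RV P7 replicate 1. It was not called in the LV (-0.12, adjusted p = 0.313).

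The other 4 tested alpha chains changed less or not at all by the test. Itga6, a laminin receptor chain of many cell types, was called lower in the RV alone (log2 = -0.51 ± 0.14, adjusted p = 0.00621), which scaling ended (-0.21, adjusted p = 0.183), as did leaving out RV P7 replicate 1; whether the chambers differ is tested further on. Itgav, the chain of vitronectin receptors, was called lower in the RV (-0.46) and the LV (-0.37), and neither call stood after scaling (adjusted p = 0.313 and 0.687). Without the 7 libraries low in NM_008710 the Itgav values were -0.62, adjusted p = 0.0604 in the RV and -0.52, adjusted p = 0.107 in the LV, so both calls ended. They also ended with no filter on low values and without replicate 1 or 3 of P0 or replicate 1 of P7 of the same chamber. Itga8 and Itga9, chains that bind nephronectin and tenascin, were not called as deposited and were called higher after scaling in both chambers, with 0.43 and 0.50 in the RV and 0.43 and 0.36 in the LV.

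The make-up of the alpha chain transcripts changed with these values. Itga7 held 4.44%, 14.8% and 24.3% of the summed alpha chain RPKM at P0, P3 and P7 in the RV, and 4.32%, 13.9% and 19.8% in the LV. Itga5 held 42.6%, 36.7% and 29.8% at the same ages in the RV and 43.0%, 37.4% and 31.9% in the LV. The ratio of Itga7 to Itga6 was 0.334 ± 0.118, 1.17 ± 0.126 and 2.30 ± 0.524 in the RV and 0.318 ± 0.0622, 1.04 ± 0.179 and 1.54 ± 0.344 in the LV. At P0 every library had less Itga7 than Itga6, and at P7 every library had more. Shares and ratios within a library do not depend on its scaling, and they show unequal change of the chains; no test was run on them.

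**Figure D3:**
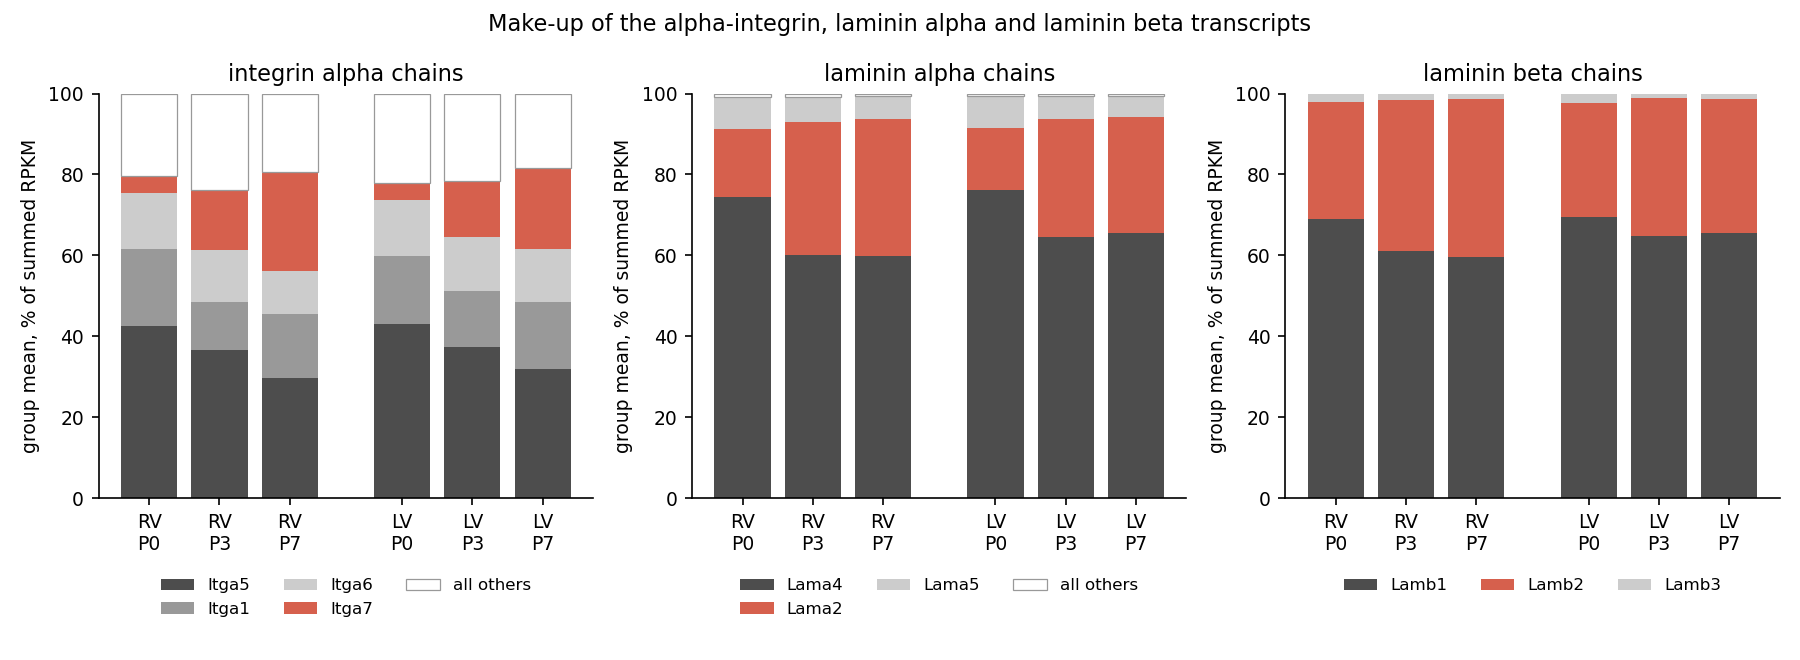
Stacked bars give the group mean share (y axis, % of the summed RPKM of the class) of each chain among integrin alpha, laminin alpha and laminin beta transcripts, by chamber and age. The red block is Itga7 on the left, Lama2 in the middle and Lamb2 on the right; the Itga7 block grows from P0 to P3 to P7, and the Lama2 and Lamb2 blocks grow between P0 and P3.

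Among the beta chains, Itgb2 rose and Itgb1 was lower in the deposited values. Itgb2 lies on chromosome 10 from 77530329 to 77565708 and was read from NM_008404. It encodes the beta chain of leukocyte integrins and stood at 0.627, 0.566 and 0.751 RPKM in the RV at P0, at 2.01, 1.45 and 1.35 RPKM at P3 and at 1.35 and 1.497 RPKM at P7. In the LV Itgb2 had 0.749, 0.573 and 0.929 RPKM at P0, 1.24, 1.30 and 1.45 RPKM at P3 and 1.29, 1.43 and 1.66 RPKM at P7. All P3 and P7 libraries lay above all P0 libraries of their chamber (log2 = 0.56 ± 0.13, adjusted p = 0.0013 for P7 against P0 in the RV and log2 = 0.49 ± 0.11, adjusted p = 0.00104 in the LV). Itgb2 reached 1 RPKM in 11 libraries, all of P3 or P7, and in no P0 library. It thus passed the filter only through the ages at which it was high. Both calls also stood with no filter on low values. The LV call ended without the 7 libraries low in NM_008710 (0.39, adjusted p = 0.0969). Of 8 tested macrophage markers, 7 were called higher at P7 than at P0 in the RV and 6 in the LV. For P3 against P0, 8 were called higher in the RV and 2 in the LV, beside 9.72% and 7.26% of all tested entries. Their summed level was 43.0 to 65.3, 79.8 to 107 and 102 to 108 RPKM at P0, P3 and P7 in the RV. In the LV the sum was 61.0 to 76.3, 68.2 to 80.0 and 102 to 114 RPKM, so its P3 range overlapped P0, unlike Itgb2. None of the 9 markers with a row was at 0 in every library, and their part in the Itgb2 change was not tested. Of 4 tested markers of lymphocytes and granulocytes (of 9 with a row), 1 was called higher and 2 lower in the RV, and 1 higher and 1 lower in the LV. Their summed level was 8.65 to 25.6, 17.9 to 22.6 and 7.73 to 10.7 RPKM at P0, P3 and P7 in the RV and 17.5 to 22.2, 16.8 to 27.3 and 12.2 to 14.2 RPKM in the LV, and its P7 ranges did not lie above its P0 ranges. Of the leukocyte alpha chains that pair with Itgb2, Itgam (at most 0.0464 RPKM) and Itgax (at most 0.512 RPKM) did not pass the filter. Itgal had no row under that symbol, so its level is not known.

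Itgb1 lies on chromosome 8 from 128685654 to 128733579 and was read from NM_010578. It stood at 245, 204 and 202 RPKM in the RV at P0, at 185, 179.8 and 195 RPKM at P3 and at 170.3 and 170.0 RPKM at P7. It had 225, 222 and 234 RPKM in the LV at P0, 221, 210.4 and 223 RPKM at P3 and 185, 186 and 182 RPKM at P7. The P7 libraries were below all P0 libraries of their chamber, and the gene was called lower as deposited, with a change of sign in the LV after upper-quartile scaling (log2 = -0.34 ± 0.09, adjusted p = 0.00361 in the RV and log2 = -0.30 ± 0.08, adjusted p = 0.00329 in the LV). The change was -0.02 in the RV and turned to 0.06 in the LV after upper-quartile scaling (adjusted p = 0.889 and 0.567). Its calls also ended without the 7 libraries low in NM_008710 (adjusted p = 0.0767 in the RV and 0.127 in the LV). Itgb5 and Itgb3, the partners of Itgav in vitronectin receptors, were not called: Itgb5 averaged 6.21 ± 0.735 RPKM in the RV at P7, against 7.24 ± 0.923 RPKM at P0, and 5.83 ± 0.741 RPKM in the LV at P7, against 7.08 ± 0.811 RPKM at P0. Itgb3 lay between 1.09 and 1.72 RPKM over all libraries.

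Of the 3 proteins named for binding integrin tails, melusin was high and was not called in either chamber. Itgb1bp2 lies on chromosome X from 101449088 to 101466122 and was read from NM_013712. It stood at 81.7, 103 and 87.0 RPKM in the RV at P0, at 92.9, 66.6 and 85.4 RPKM at P3 and at 101 and 103 RPKM at P7. In the LV its values were 80.1, 107 and 73.5 RPKM at P0, 107, 78.2 and 86.9 RPKM at P3 and 88.3, 78.7 and 81.8 RPKM at P7, and the ages overlapped. After upper-quartile scaling it was called higher in the RV (0.50, adjusted p = 0.0187) and not in the LV (0.30, adjusted p = 0.0918). Itgb1bp1, an adaptor that competes for the Itgb1 tail, averaged 11.4 ± 0.469 RPKM in the RV at P7, against 12.6 ± 1.83 RPKM at P0, and 11.9 ± 1.47 RPKM in the LV at P7, against 10.9 ± 0.165 RPKM at P0. It was not called as deposited and was called higher in the LV after scaling (0.43, adjusted p = 0.0012). Itgb3bp, whose protein is also a component of the centromere, was called lower in the LV (log2 = -0.48 ± 0.12, adjusted p = 0.00178), which scaling ended (-0.18, adjusted p = 0.208), as did leaving out the 7 libraries (-0.47, adjusted p = 0.0754). It was not called in the RV (-0.31, adjusted p = 0.0587).

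Among the laminin alpha chains, Lama2 rose while Lama4 and Lama5 were level or lower. Lama2 lies on chromosome 10 from 26981285 to 27617191 and was read from NM_008481. The gene, whose start window is among those printed, encodes the alpha chain of muscle laminin. It stood at 14.3, 15.3 and 15.2 RPKM in the RV at P0, at 35.01, 26.5 and 30.4 RPKM at P3 and at 27.4 and 32.0 RPKM at P7. In the LV Lama2 had 15.1, 14.6 and 15.9 RPKM at P0, 32.9, 19.0 and 28.5 RPKM at P3 and 25.8, 25.6 and 29.0 RPKM at P7. Every P3 and P7 library lay above every P0 library, and the P3 and P7 libraries of each chamber overlapped. P7 against P0 was called in the RV (log2 = 0.94 ± 0.16, adjusted p = 7.83e-05) and in the LV (log2 = 0.78 ± 0.14, adjusted p = 0.000112), and so was P3 against P0 (log2 = 0.98 ± 0.14, adjusted p = 3.31e-05 in the RV and log2 = 0.74 ± 0.14, adjusted p = 0.000743 in the LV). P7 against P3 was not called in either chamber (-0.04 in the RV, adjusted p = 0.869, and 0.03 in the LV, adjusted p = 0.866). Of 9 tested fibroblast markers, 7 were called higher at P7 than at P0 in the RV and 5 in the LV. For P3 against P0, 8 were called higher in the RV and 5 in the LV, beside 9.72% and 7.26% of all tested entries. For P7 against P3, 1 was called higher in the RV and 4 in the LV, beside 2.5% and 6.56% of all tested entries. The markers summed to 658 to 873, 1191 to 1502 and 1357 to 1585 RPKM at P0, P3 and P7 in the RV. In the LV the markers summed to 734 to 947, 888 to 1191 and 1268 to 1380 RPKM, with P0 and P3 overlapping. Their part in the Lama2 change was not tested.

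Lama4, an alpha chain of muscle and vessel basement membranes, was the most abundant laminin alpha transcript. Lama4 lies on chromosome 10 from 38965515 to 39110188 and was read from NM_010681. It averaged 52.4 ± 6.24 RPKM in the RV at P7, against 66.7 ± 6.36 RPKM at P0, and 61.7 ± 7.86 RPKM in the LV at P7, against 75.2 ± 5.98 RPKM at P0. It was called lower in the RV (log2 = -0.34 ± 0.14, adjusted p = 0.045) and not in the LV (log2 = -0.29 ± 0.13, adjusted p = 0.0528), and scaling brought both changes near 0, with a change of sign in the LV (-0.02 in the RV and 0.06 in the LV). The RV call also ended with the replicate block (adjusted p = 0.0605), with no filter on low values, with the low level of NM_008710 as a term, and without any 1 of replicate 1 or 3 of RV P0, replicate 1 or 3 of RV P3, RV P7 replicate 1, LV P0 replicate 3 or LV P7 replicate 2. In the LV, Lama4 was called lower with the replicate block. It was also called there without any 1 of LV P0 replicate 2, LV P3 replicate 1 or 2, LV P7 replicate 3 or RV P0 replicate 1. Endothelial marker sums were higher at P7, at 706 to 849, 1124 to 1206 and 1342 to 1841 RPKM at P0, P3 and P7 in the RV and 668 to 926, 1377 to 1613 and 1910 to 2119 RPKM in the LV, with 5 of 9 tested markers called higher and 1 lower in the RV and 6 higher in the LV. Their part in the laminin values was not tested. Lama5 lies on chromosome 2 from 180176373 to 180225904 and was read from NM_001081171. It encodes an alpha chain of mature basement membranes in many organs and stood at 9.02, 5.21 and 7.45 RPKM in the RV at P0, at 6.36, 4.96 and 6.23 RPKM at P3 and at 4.63 and 5.51 RPKM at P7. In the LV Lama5 had 9.24, 6.13 and 8.07 RPKM at P0, 6.23, 3.94 and 5.68 RPKM at P3 and 4.65, 4.32 and 5.48 RPKM at P7. The P7 and P0 libraries overlapped in the RV, where the gene was not called (log2 = -0.41 ± 0.19, adjusted p = 0.0756), and did not overlap in the LV, where it was called lower (log2 = -0.59 ± 0.17, adjusted p = 0.00622). The LV call ended with upper-quartile scaling (-0.28, adjusted p = 0.106) and without the 7 libraries (-0.63, adjusted p = 0.088).

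As a share of the laminin alpha sum, Lama2 held 16.8%, 32.8% and 33.9% at P0, P3 and P7 in the RV and 15.4%, 29.1% and 28.6% in the LV. Lama4 held 74.4%, 60.2% and 59.8% in the RV and 76.1%, 64.6% and 65.7% in the LV. The ratio of Lama2 to Lama4 was 0.226 ± 0.0288, 0.546 ± 0.0483 and 0.567 ± 0.00506 at the 3 ages in the RV and 0.203 ± 0.0120, 0.450 ± 0.0367 and 0.437 ± 0.0411 in the LV, and every P3 and P7 library had a higher ratio than every P0 library. At P3 and P7 each RV library also had a higher ratio than each LV library of its age; no test was run on the ratio.

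Among the laminin beta chains, Lamb2 rose in the RV and Lamb1 was not called. Lamb2 lies on chromosome 9 from 108479847 to 108490530 and was read from NM_008483. It encodes the beta chain of mature muscle and synaptic basement membranes and stood at 33.4, 25.9 and 32.1 RPKM in the RV at P0, at 49.1, 37.1 and 46.3 RPKM at P3 and at 41.1 and 44.2 RPKM at P7. In the LV Lamb2 had 32.2, 30.4 and 31.5 RPKM at P0, 47.4, 26.5 and 42.1 RPKM at P3 and 38.1, 33.0 and 39.9 RPKM at P7. The P7 libraries lay above the P0 libraries in each chamber, and LV P3 replicate 2 was the lowest LV library of all. P7 against P0 was called in the RV (log2 = 0.48 ± 0.17, adjusted p = 0.0262), a call lost without either RV P7 library, without RV P0 replicate 2 or with no filter on low values. It was not called in the LV (log2 = 0.23 ± 0.16, adjusted p = 0.204) until scaled (0.57, adjusted p = 0.000915). Lamb1 lies on chromosome 12 from 31265146 to 31329644 and was read from NM_008482. Lamb1, the beta chain of embryonic and many adult laminins, averaged 65.7 ± 8.61 RPKM in the RV at P7, against 72.9 ± 7.48 RPKM at P0, and 72.6 ± 2.90 RPKM in the LV at P7, against 77.6 ± 6.19 RPKM at P0. It was not called as deposited (-0.15 and -0.09), and after scaling it was 0.17 in the RV (adjusted p = 0.223) and turned to a call in the other direction in the LV (0.26, adjusted p = 0.0359). The ratio of Lamb2 to Lamb1 was 0.418 ± 0.0373, 0.613 ± 0.0494 and 0.653 ± 0.0530 at P0, P3 and P7 in the RV and 0.405 ± 0.0234, 0.530 ± 0.0531 and 0.509 ± 0.0400 in the LV.

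Lamb3, a chain of the laminin of epithelial basement membranes, was low and fell in both chambers, in the RV only as deposited. Lamb3 lies on chromosome 1 from 193294353 to 193343878 and was read from NM_008484. It stood at 2.32, 1.78 and 2.92 RPKM in the RV at P0, at 1.75, 1.74 and 1.90 RPKM at P3 and at 1.39 and 1.45 RPKM at P7. In the LV Lamb3 had 2.53, 2.14 and 2.96 RPKM at P0, 1.11, 1.24 and 1.14 RPKM at P3 and 1.33, 1.37 and 1.47 RPKM at P7. Its P7 libraries lay below its P0 libraries, and in the LV the lowest values were those of P3 (log2 = -0.45 ± 0.13, adjusted p = 0.00805 in the RV and log2 = -0.56 ± 0.12, adjusted p = 0.000441 in the LV). Scaling ended the RV call (-0.24, adjusted p = 0.126), as did leaving out RV P7 replicate 1, and leaving out the 7 libraries ended both (adjusted p = 0.107 and 0.0523). Lama3, the alpha chain of that laminin, did not pass the filter, with 0.298 to 0.9752 RPKM. Markers of epicardium and mesothelium, an epithelial sheet on the heart surface, went both ways: 4 of 8 were called lower and 1 higher in the RV, and 5 lower and 1 higher in the LV, beside the 46.1% and 53% of all entries called lower. After scaling 1 was lower and 1 higher in the RV, and 5 were lower and 1 higher in the LV. Their summed level was 53.8 to 111, 74.2 to 104 and 69.3 to 69.5 RPKM at P0, P3 and P7 in the RV and 50.3 to 94.0, 50.0 to 51.4 and 50.2 to 61.5 RPKM in the LV. The P7 range lay within the P0 range in the RV and overlapped it in the LV, and the part of these markers in the Lamb3 change was not tested.

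Lamc1 was called between P7 and P0 only after scaling. Lamc1 lies on chromosome 1 from 153218922 to 153332786 and was read from NM_010683. Lamc1, the gamma chain of most laminins, averaged 97.9 ± 10.03 RPKM in the RV at P7, against 88.4 ± 6.88 RPKM at P0, and 109 ± 9.61 RPKM in the LV at P7, against 94.2 ± 9.38 RPKM at P0. It was not called as deposited (0.14, adjusted p = 0.42, in the RV and 0.21, adjusted p = 0.164, in the LV) and was called higher after scaling (0.47, adjusted p = 0.00458, in the RV and 0.57, adjusted p = 0.000278, in the LV).

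The collagen receptor genes Itga2 and Itga1 are adjacent on chromosome 13 (25978 bases apart, with no gene of the reference table between them). The ratio of Itga1 to Itga2 was 11.1 ± 3.99, 11.8 ± 1.91 and 14.9 ± 0.0121 at P0, P3 and P7 in the RV and 7.38 ± 2.12, 9.04 ± 0.256 and 13.1 ± 1.42 in the LV, and no test was run on it.

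The sums of the 3 laminin chain classes stayed close to each other while their make-up changed. The alpha chains summed to 89.6 ± 7.95, 93.3 ± 7.97 and 87.7 ± 10.3 RPKM at P0, P3 and P7 in the RV and to 98.9 ± 8.13, 91.4 ± 19.8 and 93.9 ± 9.80 RPKM in the LV. The beta chains summed to 106 ± 11.3, 118 ± 10.9 and 109.7 ± 10.8 RPKM in the RV and 111 ± 7.35, 112 ± 25.0 and 111 ± 5.99 RPKM in the LV. The gamma chains summed to 95.7 ± 7.46, 96.3 ± 7.56 and 101 ± 10.1 RPKM in the RV and 101 ± 10.3, 92.6 ± 20.8 and 112 ± 9.69 RPKM in the LV. Over all 17 libraries the alpha sum was 0.799 to 1.01 times the gamma sum, and the beta sum 0.951 to 1.30 times. The alpha to gamma ratio was 0.936 ± 0.0287, 0.968 ± 0.0282 and 0.866 ± 0.0155 at the 3 ages in the RV and 0.985 ± 0.0259, 0.989 ± 0.0370 and 0.835 ± 0.0328 in the LV, with every P7 library below every P0 library of its chamber. The LV P3 replicate 2 library had the lowest sum of each class, which widens the SD of that group.

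**Figure D4:**
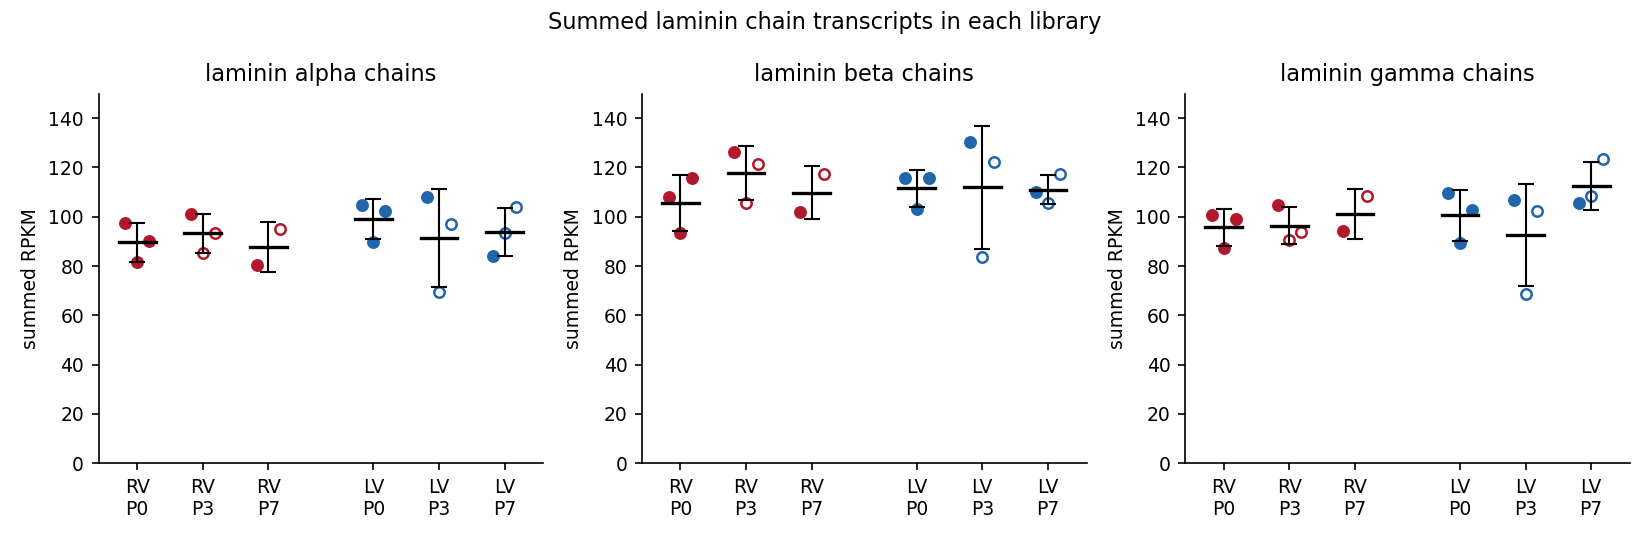
Summed RPKM (y axes, from 0) of the laminin alpha, beta and gamma chains in each library, by chamber and age, with the group mean and SD; open circles are the 7 libraries low in NM_008710. All sums lie between 68.7 and 130.3 RPKM, and the lowest point of each panel is LV P3 replicate 2.

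In the step from P0 to P3, Itga7 and Lama2 were called higher in both chambers, and in the step from P3 to P7 Lama2 was not. For P3 against P0, 9 members were called in the RV (5 higher and 4 lower), beside 31.2% of all tested entries, 9.72% higher and 21.5% lower. In the LV 9 were called (3 higher and 6 lower), beside 27.9%, with 7.26% higher and 20.6% lower. For P7 against P3, 2 were called in the RV (1 higher and 1 lower), beside 17.3%, with 2.5% higher and 14.8% lower. In the LV 5 were called (2 higher and 3 lower), beside 34.4%, with 6.56% higher and 27.9% lower. No test compared the steps, and the share of all entries called was likewise lower in the second step of the RV, which rests on 2 RV P7 libraries. Itga7 was the only member called higher in both steps of both chambers, with 1.48 and then 0.60 in the RV and 1.41 and then 0.49 in the LV. Its calls for P7 against P3 were less firm (adjusted p = 0.0287 in the RV and 0.0243 in the LV). They ended without the 7 libraries (adjusted p = 0.228 in the RV and 0.362 in the LV) and with no filter on low values. The RV call ended without RV P3 replicate 2 or 3 or RV P7 replicate 1, and the LV call without LV P3 replicate 2 or 3 or LV P7 replicate 1 or 3. Without the 7 libraries low in NM_008710, 0 members were called in the P7 against P3 step of either chamber by limma, with 1 library left per P3 and P7 group, beside 0.544% of all entries in the RV and 4.69% in the LV; 5 members in the RV and 3 in the LV had an unadjusted p under 0.05. Itga8, an alpha chain not called for P7 against P0, was called higher at P3 in the RV (log2 = 0.58 ± 0.17, adjusted p = 0.0136), a call lost without RV P0 replicate 2 or RV P3 replicate 1.

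Between the chambers, no member was called in the unpaired limma fit to all libraries. With RV and LV libraries paired, Itga2 and Itga3 were called, a count near the share of all entries. For RV against LV averaged over the 3 ages, 0 of 24 members passed in limma, beside 1.61% of all tested entries, and 3 had an unadjusted p under 0.05 (Itga2, Itga3 and Itgb1). The robust fit called 2 (Itga2 and Itgb1), beside 16.7% of all entries, and the unpaired fit without RV P0 replicate 1 called the same 2, beside 3.96%. Without the 7 libraries low in NM_008710, limma called 0 members, beside 0.00937% of all entries, and 0 had an unadjusted p under 0.05. RV and LV libraries of an age with the same replicate number were taken as pairs, a pairing inferred from their residual correlations in these data. With such pairs as blocks limma called 2 of the 24 members, beside 8.65% of all entries, so the count was near its background. Itga2 was lower in the RV (log2 = -0.24, adjusted p = 0.0196) and Itga3 higher (log2 = 0.19, adjusted p = 0.0446). The chambers did not overlap for Itga3 at P3 and P7, where every RV library was higher. At P0 they overlapped, with 5.57 ± 0.952 RPKM in the RV, against 5.74 ± 0.604 RPKM in the LV. For Itga2 every RV library was below every LV library at P3, and the chambers overlapped at P0 and P7. Epicardium and mesothelium markers were also higher in the RV, with 3 of 8 called higher and 0 lower in limma, and their part in the Itga3 difference was not tested. Without pairing, the values were log2 = -0.26, 95% interval -0.45 to -0.06, adjusted p = 0.194 for Itga2 and log2 = 0.19, 95% interval 0.03 to 0.36, adjusted p = 0.243 for Itga3. For Itga7 the interval ran from -0.07 to 0.33, and for Lama2 from -0.07 to 0.29.

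The P7 against P0 change was not shown to differ between the chambers for any member. The test of the difference called 0 of 24 members in limma and 0 with pairs as blocks, beside 0.0375% and 0.328% of all tested entries, and 1 member had an unadjusted p under 0.05 (Itga1), or 4 with pairs (Itga1, Itga3, Itga6 and Lamb2). The 95% interval of the difference, RV minus LV, was -0.33 to 0.68 for Itga7, -0.28 to 0.61 for Lama2 and -0.77 to 0.05 for Itga6. Calls made in 1 chamber alone (Itga1, Itga6, Lama4 and Lamb2 in the RV, Lama5 and Itgb3bp in the LV) are not shown to be particular to it.

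**Figure D5:**
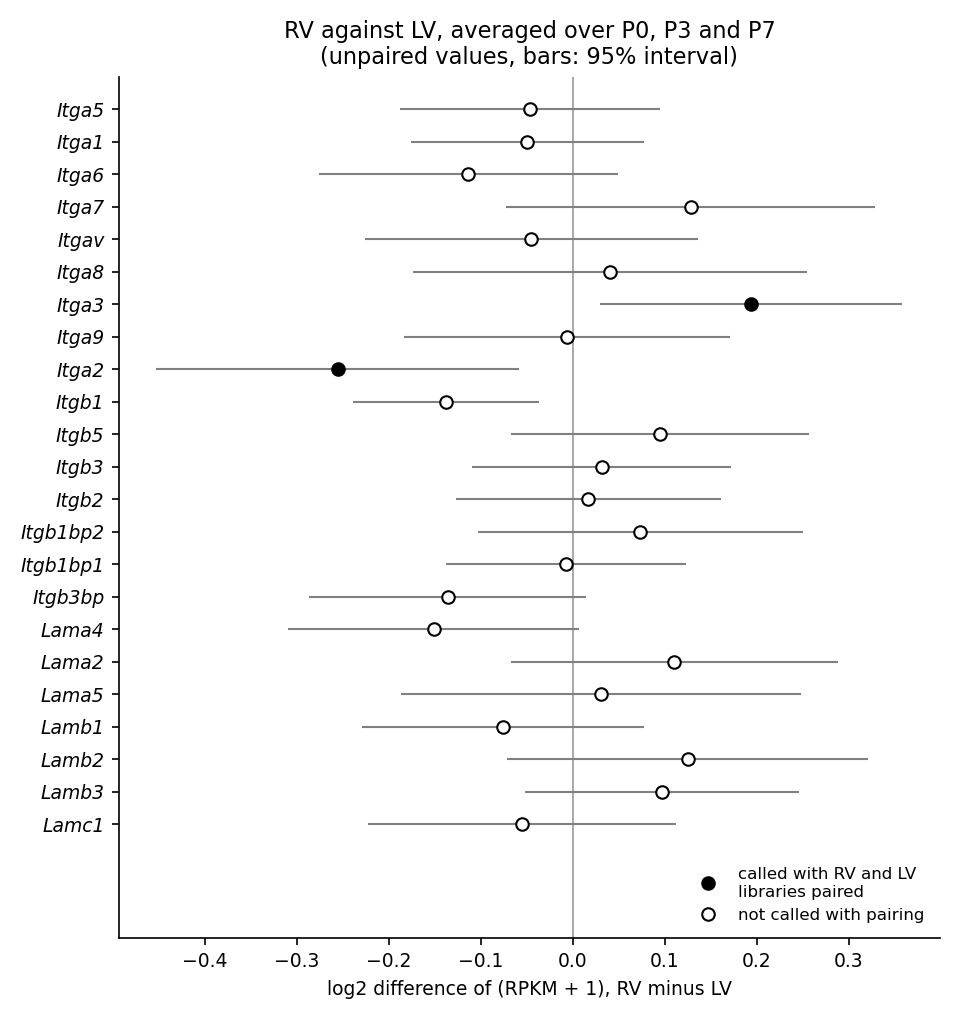
Points give the RV minus LV log2 difference (x axis, log2 of RPKM + 1), averaged over P0, P3 and P7, for tested genes, with 95% intervals from the unpaired fit. Filled points, Itga2 on the left and Itga3 on the right, were called with RV and LV libraries paired; the unpaired fit drawn called none.

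The 14 genes that did not pass the filter stood below 1 RPKM in every library, except Itga2b, the platelet integrin alpha chain, which reached 1.21 RPKM in 1 library. They were the alpha chains Itga2b, Itga4, Itga11, Itgax, Itgam and Itgae, the beta chains Itgb8, Itgb7, Itgb6, Itgb4 and Itgb2l, and the laminin chains Lama3, Lama1 and Lamc3. Their means over all libraries ran from 0.0159 RPKM (Itgae) to 0.603 RPKM (Itga2b). Itgb6, a beta chain of epithelia, had 22 and 53 reads in the RV at P7, against 0, 2 and 0 reads at P0, and 13, 21 and 23 reads in the LV at P7, against 0, 0 and 0 reads at P0. The groups did not overlap, and the P3 libraries of both chambers held 7 to 24 reads. Lama1, the alpha chain of early embryonic laminin, had 2 and 4 reads in the RV at P7, against 17, 16 and 26 reads at P0, and 0, 2 and 6 reads in the LV at P7, against 22, 6 and 20 reads at P0. These 2 genes were picked out after their values were seen and were not tested under the filter, so they are given as read counts only. With no filter on low values, both were called for P7 against P0 in both chambers. So were Itga2b and Itgb7 in both chambers, Itga11 in the RV and Itgb8 in the LV.

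Partners of these chains were read from 4 lists, for P7 against P0 and with the backgrounds given for that comparison. Of 24 tested genes of the integrin adhesion machinery (of 31 listed), 3 were higher and 14 lower at P7 in the RV, and 3 higher and 10 lower in the LV; after upper-quartile scaling 7 were higher and 4 lower in the RV and 6 higher and 3 lower in the LV. The list median was -0.35 in the RV and -0.23 in the LV, beside -0.29 and -0.31 for all entries. The largest rise was that of Lims2, a PINCH adaptor that joins integrin-linked kinase to the tail complex, which averaged 30.6 ± 7.32 RPKM in the RV at P7, against 9.89 ± 2.96 RPKM at P0 (log2 = 1.56 ± 0.18, adjusted p = 1.57e-06). In the LV, Lims2 averaged 41.3 ± 6.11 RPKM at P7, against 8.52 ± 0.849 RPKM at P0 (log2 = 2.14 ± 0.16, adjusted p = 3.34e-09). The tensin Tns3 (log2 change -0.87 in the RV and -1.21 in the LV) and the talin of muscle, Tln2 (-0.72 in the RV and -1.12 in the LV), fell under both scalings.

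Of 14 tested basement membrane partners of laminin (of 16 listed), 6 were higher and 4 lower at P7 in the RV and 7 higher and 5 lower in the LV. After scaling, 8 were higher and 1 lower in the RV, and 8 higher and 3 lower in the LV. The medians, 0.33 in the RV and 0.40 in the LV, were above those of all entries. Col15a1, a collagen of muscle and capillary basement membranes, averaged 71.1 ± 3.32 RPKM in the RV at P7, against 19.8 ± 2.17 RPKM at P0 (log2 = 1.80 ± 0.16, adjusted p = 3.94e-08). In the LV, Col15a1 averaged 86.4 ± 8.57 RPKM at P7, against 24.2 ± 3.10 RPKM at P0 (log2 = 1.80 ± 0.14, adjusted p = 4.78e-09). The collagen IV chains Col4a1 (log2 change 0.44 in the RV and 0.64 in the LV) and Col4a2 (0.56 in the RV and 0.66 in the LV), which form the common network, rose, as did Smoc2 (0.86 in the RV and 1.05 in the LV), a matrix calcium-binding protein, while the minor chain Col4a6 fell (-1.20 in the RV and -1.23 in the LV). These calls stood under both scalings; Col4a1 and Col4a2 were singled out after their values were seen.

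Of 15 tested genes of the dystroglycan complex and other laminin receptors (of 17 listed), 3 were higher and 5 lower in the RV and 2 higher and 10 lower in the LV. After scaling, 4 were higher and 2 lower in the RV, and 3 higher and 4 lower in the LV. The list median was -0.30 in the RV and -0.40 in the LV. Sgca, alpha-sarcoglycan of striated muscle, averaged 43.2 ± 1.96 RPKM in the RV at P7, against 21.7 ± 2.82 RPKM at P0 (log2 = 0.97 ± 0.12, adjusted p = 2.94e-06). In the LV, Sgca averaged 42.0 ± 4.598 RPKM at P7, against 21.3 ± 2.82 RPKM at P0 (log2 = 0.95 ± 0.11, adjusted p = 5.6e-07). Bcam, a receptor for Lama5 laminins (-0.77 in the RV and -0.79 in the LV), fell under both scalings. Among 19 tested other integrin ligands (of 25 listed), 5 were higher and 3 lower in the RV and 5 higher and 5 lower in the LV. After scaling, 6 were higher and 3 lower in the RV, and 9 higher and 3 lower in the LV, and the list median as deposited was -0.08 in the RV and -0.20 in the LV. Vtn, vitronectin, averaged 11.7 ± 1.36 RPKM in the RV at P7, against 0.784 ± 0.305 RPKM at P0 (log2 = 2.84 ± 0.20, adjusted p = 2.04e-09). In the LV, Vtn averaged 13.7 ± 2.15 RPKM at P7, against 0.754 ± 0.0802 RPKM at P0 (log2 = 3.05 ± 0.18, adjusted p = 8.93e-11). Ccn3, a matricellular integrin ligand, rose (1.71 in the RV and 1.54 in the LV), and Vcam1, the ligand of Itga4 and Itga9 integrins, fell (-1.67 in the RV and -1.72 in the LV).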

How the data were processed

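Total RNA (RNeasy, strand-specific paired-end sequencing) was aligned with STAR 2.4.0j to mm10, per the submitters' processing notes. The authors deposited, for each library, an RPKM value per RefSeq entry, made by scaling reads to transcript length and library total; this unit is inferred from the values as deposited. The sources used here name no counting tool. Each value was a whole number of reads once scaled by length in 1032 of 1032 checked entries (tolerance 0.02), which gave the library totals. Entries were named from RefSeq (GRCm38.p6, 20379 entries) or GENCODE M21 (76); 169 stayed unnamed. The 10668 of 20624 entries that reached 1 RPKM in 2 or more of 17 libraries were tested on log2(RPKM + 1) with limma 3.58.1 (R 4.3.3; trended prior, 6 group means), adjusted by Benjamini-Hochberg over all of them, and the fit was tested on simulated data. Shares, ratios and figures were made with Python 3.11.15, pandas 2.3.3, numpy 2.4.6 and matplotlib 3.10.9. The pairing of same-numbered RV and LV libraries of an age was inferred from residual correlations. These were 0.269 to 0.587 in 8 same-numbered pairs and -0.402 to 0.0939 in 16 others. Residuals cancel within a group, so positive values in some pairs bring negative values in others. Members and lists were chosen with earlier results of these data known. Described with full values were the 8 called members with the largest P7 against P0 change, the 2 highest of each class and any member called between chambers, plus, from each partner list, up to 3 called genes with the largest change; the other members are named to account for all. Alternatives were upper-quartile scaling, a pseudocount of 0.1, no filter or one of 8 libraries, summed entries, a robust fit, replicate blocks, each library left out, and 2 alternatives on NM_008710 added after seeing the data. Depth limits mainly the 14 untested genes. 1 tested member and 1 listed partner are counted but not reported here.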

Additional observations from a re-analysis of the deposited data

How the results depend on the processing

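Under a pseudocount of 0.1, a filter of at least 1 RPKM in at least 8 libraries and summed entries of a gene, each count of called members stayed within 1.5 times its value as reported. Upper-quartile scaling moved the direction of calls most: 8 members were higher and 2 lower for P7 against P0 in the RV, 9 higher and 4 lower in the LV, and 4 were called for P7 against P3 in the RV. It turned the log2 change of Itgb1 in the LV to 0.055 (adjusted p = 0.567) and that of Lamb1 in the LV to 0.26 (adjusted p = 0.0359), the scaling itself lifting all values at P7. Without the 7 libraries low in NM_008710, an alternative chosen after seeing the data, the counts were 9 for RV P7 against P0 (5 lower), 7 for LV P7 against P0 (5 lower), 2 for LV P3 against P0 and 0 for P7 against P3 in each chamber, with fewer libraries in each fit. With the low level of that entry as a term, also chosen after seeing the data, 4 members were called for RV P7 against P3. With no filter on low values, 5 members were higher for LV P7 against P0 and 3 were called for LV P7 against P3. The robust fit called 14 for RV P3 against P0, 9 for RV P7 against P3, 8 for LV P7 against P3 and 2 for RV against LV; the cause was not tested. Across ages the replicate numbers share only a number: same-numbered libraries of 1 chamber had residual correlations of -0.0435 to 0.0503 (5 pairs), beside -0.15 to 0.115 in 10 other pairs. With the number as a replicate block, 15 members were called for RV P7 against P0, 14 for LV P7 against P0 and 4 for RV P7 against P3; with age and number as a replicate block, 2 were called for RV against LV. Leaving out each library in turn gave 7 to 15 calls for RV P7 against P0 (3 to 5 higher and 4 to 11 lower; 7 without RV P7 replicate 1) and 11 to 13 for LV P7 against P0 (3 higher in each case and 8 to 10 lower). It gave 6 to 10 for RV P3 against P0, 6 to 10 for LV P3 against P0, 1 to 3 for RV P7 against P3, 1 to 5 for LV P7 against P3, 0 to 2 for RV against LV and 0 in every case for the difference between chambers. RPKM carries no external standard, RV P7 has 2 libraries, and the 14 untested genes had at most 393 reads in a library.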
